A study of Mus musculus with 8 samples.

Results

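Axon guidance ligands and receptors tell a growing or established axon which tissue to enter, to avoid or to hold a synapse with. The genes described here are the protein-coding genes whose mouse symbols name a semaphorin of classes 3 to 7, a plexin, a neuropilin, an ephrin, an Eph receptor, a Slit, a Robo receptor, a netrin, Dcc or an Unc5 receptor. They numbered 68 of 38924 gene identifiers in the tables, after 3 antisense genes at Plxna4 that match by name had been left out. The 68 divided into 34 ligands and 34 receptors. By family there were 7 secreted and 13 membrane semaphorins, 9 plexins, 2 neuropilins, 3 Slits, 4 Robo receptors, 3 netrins, 5 netrin receptors, 5 ephrin-A and 3 ephrin-B ligands and 14 Eph receptors.

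Ribosome-associated mRNA was measured by RNA sequencing in the spinal cords of 8 mice, 2 in each of 4 groups. All mice were Gars+/+ on a B6.CgxB6.129 background, and the entries give each of them 1 copy of the HA-tagged Rpl22 allele (Rpl22 +/-), a ribosomal protein whose tag appears only where Cre recombinase acts. Cre under the control of Chat acts in cholinergic cells, motor neurons among them. Without Cre no ribosome is tagged, so their precipitates hold the mRNA that comes down without a tag. Crushed mice had the sciatic nerve of 1 side crushed with forceps, at ages entered as 18 weeks (Cre animal 35) or 9 weeks (Cre animal 52 and no-Cre animals 51 and 58). Uncrushed mice were 8 weeks old (Cre animals 10 and 3, no-Cre animals 4 and 6). How long after crush the cords were taken is not stated in the labels. Whole cords were used, so motor neurons of the crushed and the uncrushed side were read together. The comparison of Cre with no Cre asks which guidance mRNAs are carried on the ribosomes of cholinergic cells. The comparison of crushed with uncrushed mice asks which of them differ after nerve injury.

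As background, class 3 semaphorins are secreted and usually repel axons through a neuropilin that binds the ligand and an A-type plexin that signals. Slits act through Robo receptors, and netrins attract through Dcc or repel through Unc5 receptors. Ephrins are held in the membrane and can signal in both directions with the Eph receptor tyrosine kinases. Adult motor neurons keep producing several of these cues, and glial and vascular cells of the cord produce others.

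Library totals ran from 4826979 to 11522721 expected counts, the guidance genes took 0.144% to 0.164% of the scaled counts, and 3 counts were worth 0.19 to 1.17 CPM (CPM, TMM-scaled counts over the library's scaled total). Across 15208 genes, replicate libraries correlated at r = 0.975 (uncrushed) and 0.982 (crushed) with Cre, and at 0.904 and 0.943 without Cre. The genotype entry contradicts the title for Cre uncrushed animal 3 and for no-Cre uncrushed animal 4. Groups follow the titles here, and Chat, which makes acetylcholine, ranged from 78.17 to 126.02 CPM in the 4 libraries titled with Cre and from 3.83 to 5.16 CPM in the 4 titled without it. All 6 motor neuron markers checked were higher with Cre. With 2 animals per group, p-values measure only the spread between these animals. The fit of all 8 libraries shares the estimate of that spread across the 4 groups, although replicates without Cre correlated less.

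The promoters of 2 guidance genes are shown because these had the smallest adjusted p in each direction of the comparison of Cre with no Cre over all libraries, Sema3a among the higher and Plxnb1 among the lower genes. Each is the 250 bases before the RefSeq start of the gene on the plus strand of GRCm38.p6, at chr5:13396534-13396783 for Sema3a and chr9:109095186-109095435 for Plxnb1. Capitals mark ACAAAG, a core letter string of SOX factors, on either strand; TAATTA, a core string of homeodomain factors, was searched the same way.
Sema3a: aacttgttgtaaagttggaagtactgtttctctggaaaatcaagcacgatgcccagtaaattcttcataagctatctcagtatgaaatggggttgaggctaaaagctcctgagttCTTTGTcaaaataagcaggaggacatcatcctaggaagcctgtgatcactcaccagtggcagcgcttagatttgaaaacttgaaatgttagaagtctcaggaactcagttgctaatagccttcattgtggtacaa
Plxnb1: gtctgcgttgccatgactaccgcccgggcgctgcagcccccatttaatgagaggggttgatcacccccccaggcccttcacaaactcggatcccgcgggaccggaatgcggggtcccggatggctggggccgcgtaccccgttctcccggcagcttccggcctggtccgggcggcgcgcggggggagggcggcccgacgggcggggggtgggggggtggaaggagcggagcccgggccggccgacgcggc
The Sema3a window had 40.8% G and C with 1 ACAAAG on the minus strand, and the Plxnb1 window had 75.2% G and C with none. TAATTA was in neither. Promoter windows were found for 58 of the 68 guidance genes. ACAAAG was in 9.5% of their 74 windows and in 16.5% of all 32851 windows of that length, and TAATTA in 4.1% and 4.8%. Among genes called with Cre, ACAAAG was in 16.7% of 12 windows of the higher genes and 7.4% of 27 windows of the lower genes. The median G and C content was 64.4% over the windows of all guidance genes and 52.4% over all windows. Such matches describe letters and not bound sites.

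In the libraries of uncrushed mice with Cre, Slit2, Sema6a, Nrp2, Sema7a and Sema3a were the most abundant guidance mRNAs per length. Among these mice, 45 of the 68 genes reached 1 CPM per kilobase in both libraries and 8 reached 10. The means over both animals, in CPM per kilobase, were 30.4 for Slit2, 26.4 for Sema6a, 21.2 for Nrp2, 21.2 for Sema7a and 18.3 for Sema3a. Next in order came Sema6d at 14.7, Sema4f at 13.0, Plxna2 at 12, Slit3 at 11.2 and Plxna4 at 11.1 CPM per kilobase. Some of these were as high or higher without Cre, so a high level in a Cre library alone does not place an mRNA in cholinergic cells. The order per length also depends on the deposited lengths, which were 2.67 kilobases for Slit2 and 5.11 for Sema6a. In CPM not scaled for length, the means were 135 for Sema6a, 124 for Plxna4, 109 for Nrp2 and 81.2 for Slit2. At the other end, 5 genes had too few counts to test: Efna4 with 2 counts over all libraries, Ntn5 with 5, Robo3 with 8, Epha1 with 25 and Efnb1 with 35.

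**Figure D1:**
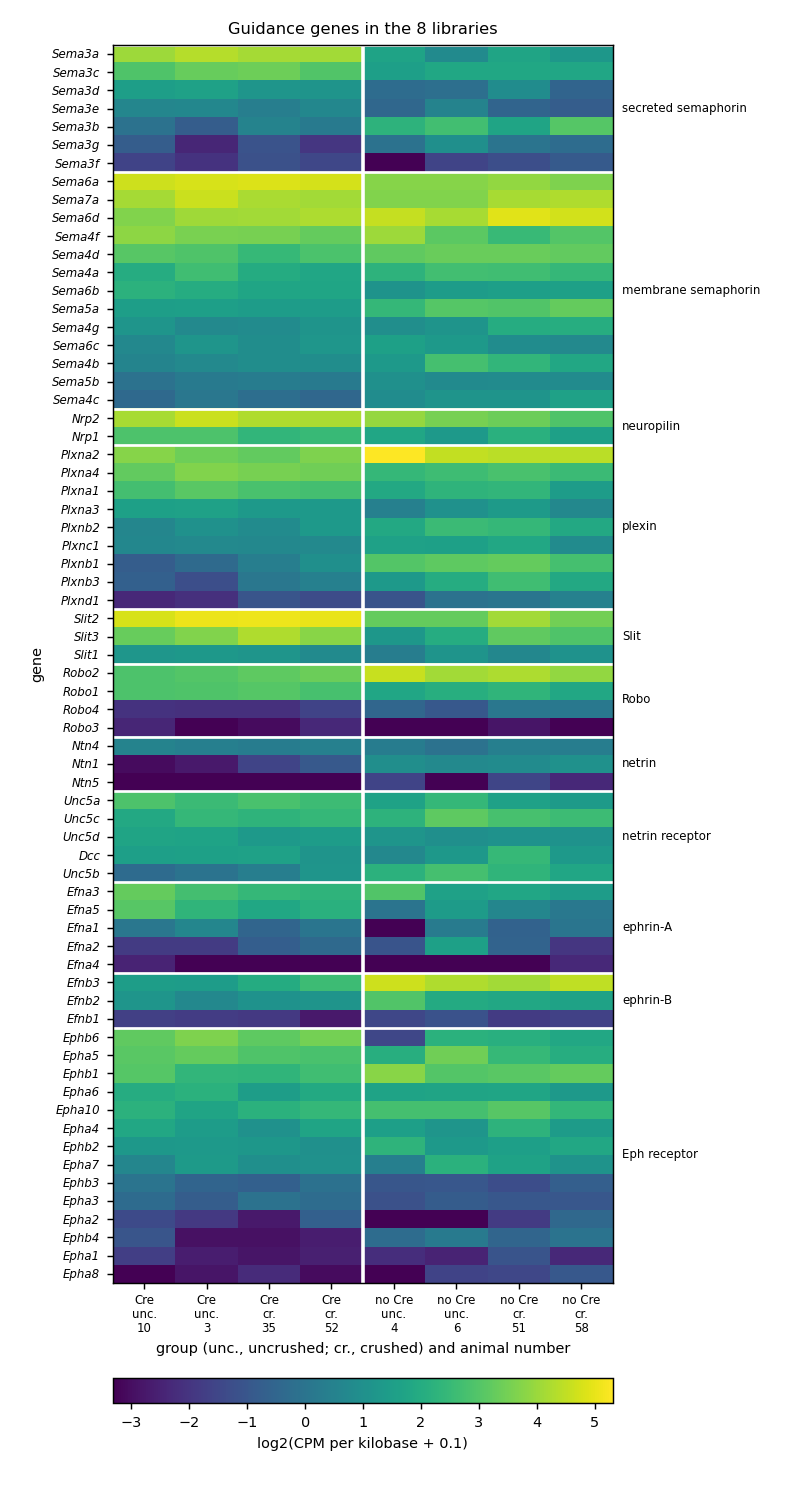
Level of each of the 68 guidance genes (rows, grouped by family) in each of the 8 libraries (columns, by group and animal number), as log2 of CPM per kilobase plus 0.1. The 4 libraries with Cre stand left of the white line, where Sema3a and Slit2 are brighter and Plxnb1 and Efnb3 darker than in the 4 without Cre.

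Over all 8 libraries, 16 of the 63 guidance genes tested were higher with Cre and 22 were lower, at an adjusted p under 0.05 in edgeR's quasi-likelihood test with Benjamini-Hochberg adjustment over all 15208 genes. That is 60.3% of the guidance genes, against 59.8% of all genes tested, of which 29.0% were higher and 30.8% lower. The median log2 fold change (Cre over no Cre) was -0.10 for guidance genes and -0.05 for all genes. As a set, these genes were therefore called about as often as other genes. The same shares of all genes stand beside the counts by family given further below. Ligands split into 8 higher and 10 lower of 31 tested, and receptors into 8 higher and 12 lower of 32. With all 4 Cre libraries above all 4 no-Cre libraries there were 18 guidance genes (25.7% of all genes did so), and with all 4 below there were 20 (25.2% of all genes). With both libraries of contradictory genotype left out, 16 guidance genes were higher and 20 lower, 31 of them among the 38. With libraries scaled by their totals alone, 21 were higher and 15 lower. That scaling moved the median of all genes to 0.36.

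Tested in each condition, uncrushed mice gave 14 higher and 15 lower guidance genes of 63 (46%, against 42.5% of all genes), and crushed mice gave 12 higher and 17 lower (46%, against 42.9%). The medians were 0.07 in uncrushed mice (all genes -0.03) and -0.36 in crushed mice (all genes -0.08). Genes called in both conditions were Efna5, Plxna1, Plxna4, Robo1, Sema3a, Sema3c, Sema6a, Slit2 and Slit3 on the higher side. On the lower side they were Efnb3, Ntn1, Plxna2, Plxnb1, Plxnb2, Plxnb3, Plxnd1, Robo2, Sema3b, Sema4b, Sema5a and Unc5b. With both libraries of contradictory genotype left out, 5 higher and 13 lower genes were called in uncrushed mice, 15 of them among the 29. That fit has 1 library in each uncrushed group, each assumed to vary as the crushed groups do. Scaling by library totals alone gave 19 higher and 6 lower there, with a median of 0.65 over all genes. Fits of only the 2 groups compared called 23 of 55 guidance genes in uncrushed mice (39.5% of all genes) and 30 of 62 in crushed mice (50.3% of all genes).

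**Figure D2:**
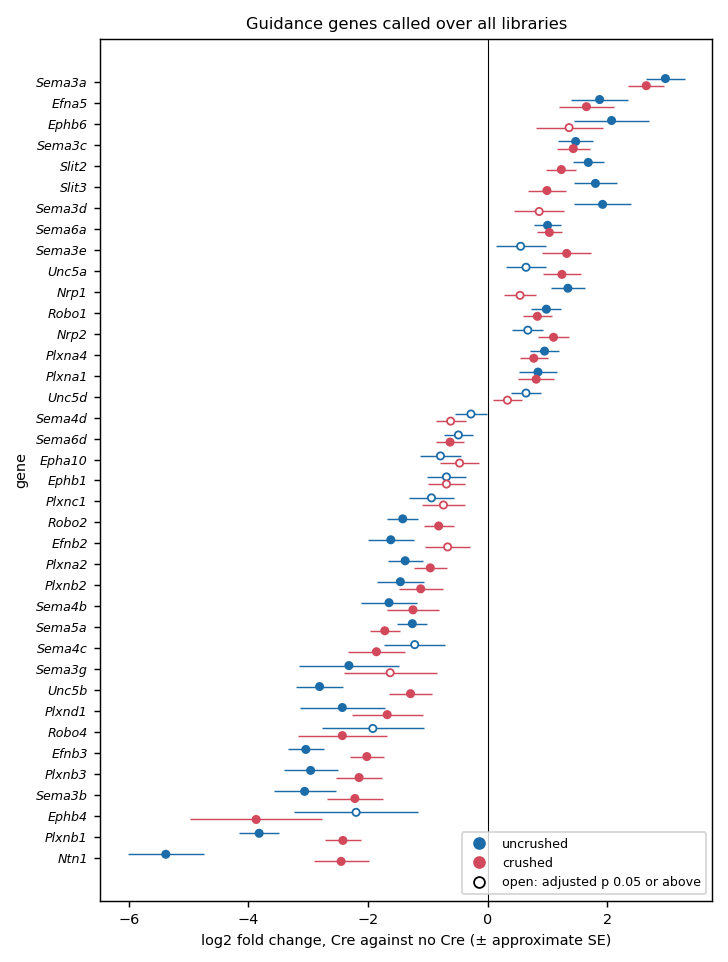
Log2 fold change of Cre against no Cre (horizontal axis, with approximate standard error) in uncrushed (blue) and crushed (red) mice for the 38 guidance genes called over all libraries; open circles have an adjusted p of 0.05 or above. Sema3a lies farthest to the right in both conditions, and Ntn1 and Plxnb1 are among those farthest to the left.

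Among secreted semaphorins, 4 of 7 were higher with Cre over all libraries and 2 were lower (all genes 29.0% and 30.8%). Sema3a, a repellent ligand for neuropilin-1 and A-type plexins, was at 81.31 and 101.38 CPM in uncrushed animals 10 and 3 with Cre, and 88.11 and 85.84 CPM in crushed animals 35 and 52 with Cre. Without Cre it was at 15.6 and 8.28 CPM in uncrushed animals 4 and 6, and 16.15 and 11.49 CPM in crushed animals 51 and 58. Every Cre library stood above every no-Cre library, with no overlap in either condition. The log2 fold change was 2.97 ± 0.32 (approximate SE, 2 animals per group) in uncrushed mice, 2.65 ± 0.30 in crushed mice and 2.81 ± 0.22 over all libraries (adjusted p 3.61e-06). Sema3c, another class 3 ligand, was at 28.23, 36.72, 39.31 and 29.19 CPM in the Cre libraries and 10.53, 12.82, 12.89 and 12.49 CPM in the no-Cre libraries (log2 fold change 1.45 ± 0.20 over all libraries). Sema3d was at 17.95 and 19.28 CPM with Cre and at 4.68 and 5.07 CPM without Cre in uncrushed mice. In crushed mice it was at 14.11 and 13.77 CPM with Cre and at 11.4 and 3.83 CPM without. Its fold change was 1.92 ± 0.48 in uncrushed mice (adjusted p 0.00794) and 0.86 ± 0.42 in crushed mice (adjusted p 0.121), where no-Cre animal 51 came close to the Cre libraries. Sema3e, a ligand that binds plexin D1 directly, changed by 0.94 ± 0.29 over all libraries (adjusted p 0.0171), a call lost without Cre crushed animal 52 (adjusted p 0.0594).

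Sema3b and Sema3g went the other way. Sema3b was at 2.73, 1.56, 4.3 and 3.4 CPM in Cre animals 10, 3, 35 and 52, against 14.82, 20.3, 10.18 and 25.99 CPM in no-Cre animals 4, 6, 51 and 58, with no overlap (log2 fold change -2.64 ± 0.35 over all libraries, adjusted p 8.79e-05). Sema3g, in the same order, was at 2.21, 0.39, 1.65 and 0.71 CPM with Cre and at 3.9, 8.55, 4.07 and 3.33 CPM without. Its values are a few CPM, and its call over all libraries (-1.97 ± 0.57, adjusted p 0.0113) was lost without no-Cre uncrushed animal 6 (adjusted p 0.0615). Sema3f stayed at or under 1.5 CPM in every library and was not called. Per length, Sema3a made up 52.5% to 57.5% of all class 3 semaphorin mRNA in the Cre libraries and 10.6% to 24.4% in the no-Cre libraries, and Sema3b made up 1.4% to 4.0% and 23.8% to 50.8%.

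**Figure D3:**
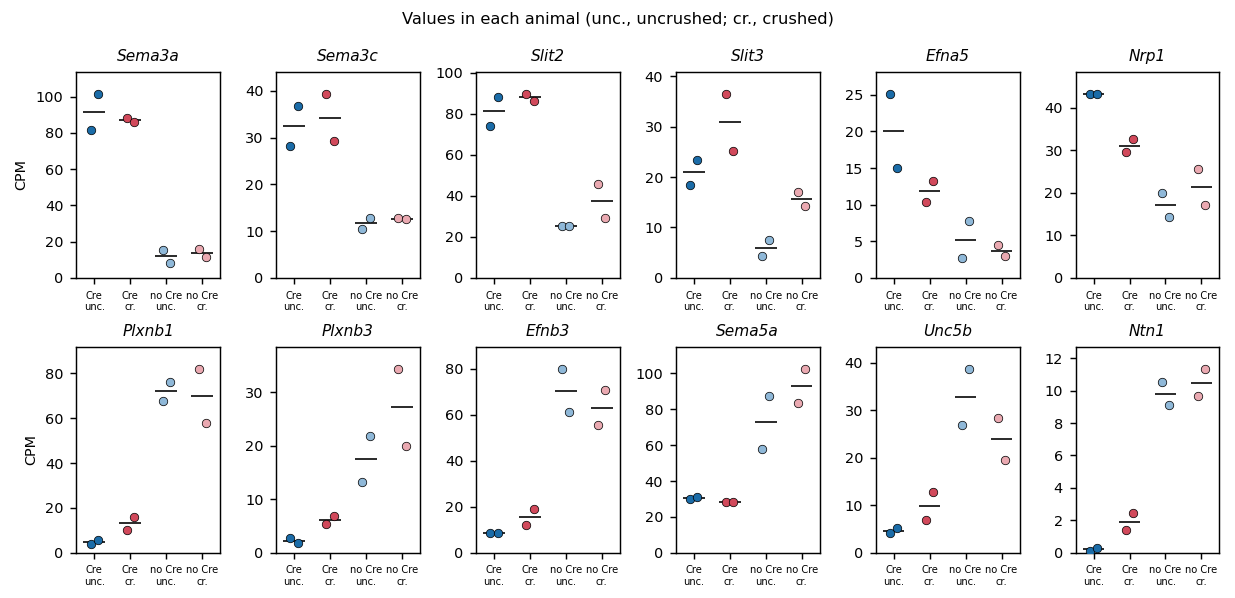
CPM of 12 guidance genes in each animal (points) by group, with the mean of the 2 animals as a bar; the vertical axes start at 0 and differ between genes. The upper row holds genes higher with Cre and the lower row genes lower with Cre. In the lower row all genes but Sema5a have their lowest values in the 2 Cre uncrushed animals.

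Both neuropilins, the ligand-binding co-receptors for class 3 semaphorins, were higher with Cre over all libraries. Nrp2 had 91.33, 125.92, 98.68 and 94.7 CPM in Cre animals 10, 3, 35 and 52, and 77.98, 59.03, 51.84 and 38.48 CPM in no-Cre animals 4, 6, 51 and 58. The log2 fold change of Nrp2 was 0.67 ± 0.26 in uncrushed mice (adjusted p 0.0549) and 1.10 ± 0.26 in crushed mice (adjusted p 0.00614). Nrp1 gave 1.34 ± 0.29 in uncrushed mice (adjusted p 0.00367) and 0.54 ± 0.27 in crushed mice (adjusted p 0.127). The difference between conditions was not called for either gene.

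Plexins are the signalling receptors for semaphorins, and of the A-type members 2 were higher with Cre and 1 was lower over all libraries. Plxna4, which pairs with neuropilins, was at 104.99, 143.06, 128.74 and 119.23 CPM in Cre animals 10, 3, 35 and 52, against 59.66, 68.38, 79.53 and 65.64 CPM in no-Cre animals 4, 6, 51 and 58. Its log2 fold change over all libraries was 0.86 ± 0.17 (adjusted p 0.00109). Antisense genes overlap Plxna4, and the labels do not say whether the counting used strand, so reads of the 2 strands may not be told apart. Plxna1 was also higher, by 0.83 ± 0.22 (adjusted p 0.00682), a call that was lost with both libraries of contradictory genotype left out. Plxna2 was lower instead, at 84.04, 66.42, 59.18 and 78.01 CPM with Cre and 248.77, 143.43, 132.73 and 134.77 CPM without, in the same order of animals (-1.17 ± 0.20, adjusted p 0.00051). Plxna3 was not called (0.56 ± 0.26, adjusted p 0.0822).

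All 3 B-type plexins were lower with Cre. Plxnb1, a receptor for Sema4D, had 4.16 and 5.94 CPM in uncrushed animals 10 and 3, which carried Cre, but 67.85 and 76.12 CPM in uncrushed animals 4 and 6, which did not. After crush it was at 10.32 and 15.9 CPM in Cre animals 35 and 52, and 81.97 and 57.97 CPM in no-Cre animals 51 and 58. The Cre and no-Cre values are far apart in both conditions, with log2 fold changes of -3.82 ± 0.33 and -2.42 ± 0.30 and -3.12 ± 0.22 over all libraries (adjusted p 2.61e-06). Plxnb3, known from oligodendrocytes, was at 2.86, 1.75, 5.32 and 6.96 CPM with Cre and at 13.26, 21.9, 34.34 and 19.99 CPM without (-2.55 ± 0.30). Plxnb2 changed by -1.29 ± 0.27. Its call over all libraries was lost when libraries were scaled by their totals alone. Plxnd1, a receptor known from blood vessels, was at 0.52, 0.68, 2.03 and 1.58 CPM with Cre and at 1.95, 4.54, 4.89 and 6.83 CPM without (-2.06 ± 0.46, adjusted p 0.00276). Its call in uncrushed mice was lost without Cre animal 10, Cre animal 3 or no-Cre animal 6 (adjusted p 0.0849, 0.0716 and 0.165). Plxnc1, the receptor of Sema7a, was called lower over all libraries (-0.84 ± 0.26), a call lost without any 1 of 5 libraries (adjusted p 0.0533 to 0.105). Per length, A-type plexins made up 81.2% to 88.8% of plexin mRNA in the Cre libraries and 58.4% to 74.3% in the no-Cre libraries. B-type plexins made up 6.8% to 14% and 20.7% to 34.4%. The summed A-type level itself was not higher with Cre, at 30.3 to 34.8 CPM per kilobase against 31.5 to 49.7 without, while the B-type level was 2.5 to 5.5 against 13.8 to 21.1 CPM per kilobase.

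**Figure D4:**
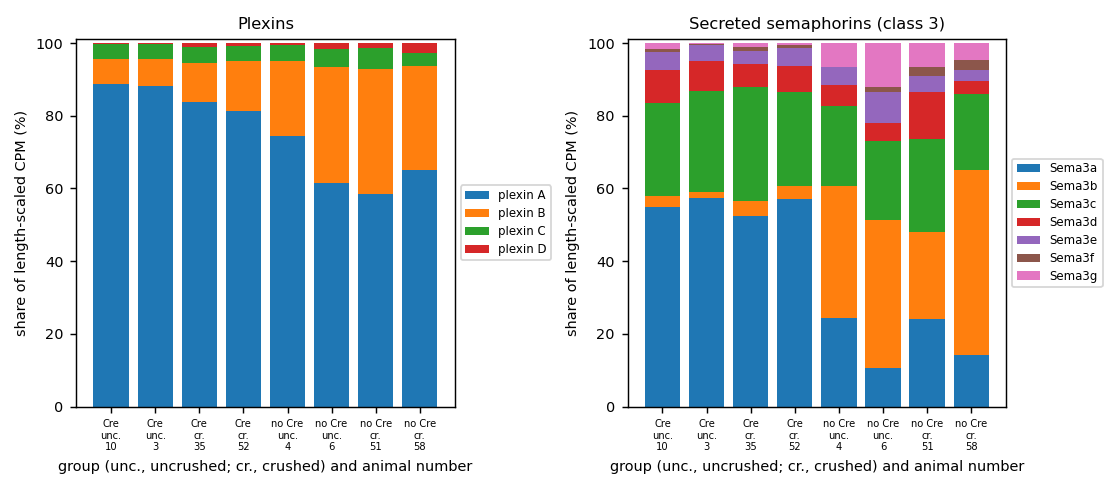
Make-up of plexin mRNA by subfamily (left) and of class 3 semaphorin mRNA by gene (right) in each library, as a share of summed CPM per kilobase (vertical axis, percent). The 4 Cre libraries on the left of each panel give larger shares to plexin A and Sema3a, and smaller shares to plexin B and Sema3b, than the 4 no-Cre libraries.

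Of the 13 membrane semaphorins, 1 was higher and 5 were lower with Cre over all libraries (all genes 29.0% and 30.8%). Sema6a, a transmembrane ligand of plexin A2 and A4, was the higher one, at 129.06, 140.43, 148.24 and 137.98 CPM in Cre animals 10, 3, 35 and 52, against 67.07, 67.57, 76.95 and 63.14 CPM in no-Cre animals 4, 6, 51 and 58 (1.02 ± 0.15, adjusted p 0.000198). Sema7a, a lipid-anchored ligand, was at 58.54 and 80.93 CPM with Cre and 41.33 and 42.2 CPM without in uncrushed mice, and at 61.08 and 56.25 CPM with Cre and 59.85 and 63.14 CPM without in crushed mice. It was called in uncrushed mice (0.74 ± 0.23, adjusted p 0.0245) and not in crushed mice (-0.07 ± 0.22, adjusted p 0.825). The uncrushed call was lost without Cre animal 3, no-Cre animal 4 or no-Cre animal 6 (adjusted p 0.209, 0.0652 and 0.0509). Sema6d was at 71.81, 95.15, 98.87 and 108.7 CPM with Cre and at 132.57, 102.83, 171.68 and 150.27 CPM without, so its groups overlapped (-0.56 ± 0.17, adjusted p 0.0132). Its call was lost without any 1 of 4 libraries, at adjusted p 0.0526 to 0.0946. Sema4f was at 56.46, 47.62, 46.33 and 38.45 CPM with Cre and at 65.12, 34.99, 22.26 and 31.49 CPM without, and was not called (0.36 ± 0.22, adjusted p 0.167).

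Sema5a, whose protein carries thrombospondin repeats, was lower with Cre at 29.92, 30.87, 28.29 and 28.09 CPM, against 57.71, 87.61, 83.6 and 102.45 CPM in no-Cre animals 4, 6, 51 and 58 (-1.49 ± 0.18, adjusted p 4.05e-05). The 4 Cre values lie within 3 CPM of each other, and the call held in each condition. Sema4b (-1.45 ± 0.32), Sema4c (-1.54 ± 0.35) and Sema4d, the ligand of plexin B1 (-0.45 ± 0.18, adjusted p 0.0497), were the other lower ones. The Sema4d call was lost without any 1 of the 8 libraries (adjusted p 0.066 to 0.279). Sema6b was called only in uncrushed mice (0.85 ± 0.32, adjusted p 0.0499) and Sema4g only in crushed mice (-1.09 ± 0.32, adjusted p 0.0175), and neither difference between conditions was called. The Sema6b call was lost without any 1 of 5 libraries, with log2 fold changes of 0.73 to 0.98. The Sema4g call was lost without any 1 of 4 libraries, with log2 fold changes of -1.21 to -0.91. Sema4a, Sema5b and Sema6c were not called in any comparison of Cre with no Cre.

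Among the Slits, 2 of 3 were higher with Cre over all libraries (29.0% of all genes). Slit2, a secreted repellent read by Robo receptors, had 74.16, 88.33, 89.75 and 86.39 CPM in Cre animals 10, 3, 35 and 52, and 25.34, 25.37, 45.74 and 29.32 CPM in no-Cre animals 4, 6, 51 and 58. The groups did not overlap, and the log2 fold change was 1.68 ± 0.26 in uncrushed, 1.23 ± 0.25 in crushed and 1.45 ± 0.18 over all libraries (adjusted p 5.58e-05). Slit3 was at 18.47, 23.47, 36.46 and 25.24 CPM with Cre and at 4.29, 7.48, 16.96 and 14.16 CPM without (1.39 ± 0.24, adjusted p 0.000504). Slit1 was not called (0.29 ± 0.27). The 2 main Robo receptors differed in direction. Robo1 was at 55.68, 57.26, 61.21 and 51.9 CPM with Cre and at 25.34, 31.52, 37.05 and 26.65 CPM without (0.90 ± 0.18, adjusted p 0.0011). Robo2 was at 21.47, 23.18, 26.14 and 29.83 CPM with Cre and at 70.19, 50.21, 55.24 and 43.65 CPM without (-1.12 ± 0.18, adjusted p 0.000285). Per length, the means of Robo2 and Robo1 in Cre uncrushed animals were close, at 7.63 and 7.47 CPM per kilobase. Robo4, a receptor known from blood vessels, stayed under 1 CPM in the Cre libraries and was at 1.6 to 3.83 CPM in the no-Cre libraries (-2.18 ± 0.56, adjusted p 0.0061).

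Ntn1, the secreted netrin-1, was nearly missing from Cre uncrushed libraries, with 1 count in animal 10 and 3 counts in animal 3. These make 0.13 and 0.29 CPM, and the crushed animals 35 and 52 with Cre had 1.39 and 2.45 CPM. Without Cre, animals 4, 6, 51 and 58 had 10.53, 9.08, 9.64 and 11.33 CPM. The no-Cre uncrushed level was 43.4 times the Cre uncrushed level from 61 and 4 counts (95% interval 16.1 to 164, counting error only). The fitted log2 fold change was -3.91 ± 0.39 over all libraries (adjusted p 1.41e-05). Ntn4 was not called (0.20 ± 0.35). Among netrin receptors, Unc5b was lower with Cre, at 4.16, 5.16, 6.9 and 12.82 CPM against 26.9, 38.73, 28.5 and 19.49 CPM in no-Cre animals 4, 6, 51 and 58 (-2.05 ± 0.27, adjusted p 7.51e-05). Unc5a was higher, at 23.68, 18.7, 22.34 and 19.22 CPM against 9.75, 17.09, 9.5 and 8 CPM (0.94 ± 0.23, adjusted p 0.00471). Unc5d changed by 0.49 ± 0.18 (adjusted p 0.032), a call lost without any 1 of the 4 Cre libraries (adjusted p 0.0698 to 0.0924). Unc5c and Dcc, the attractive netrin receptor, were not called, with log2 fold changes of -0.49 ± 0.22 and -0.03 ± 0.29.

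The ephrins showed 1 ligand up and 2 down over all libraries. Efnb3, ephrin-B3, a myelin-associated ligand that stops corticospinal axons at the midline, was at 8.59, 8.47, 12.22 and 18.99 CPM in Cre animals 10, 3, 35 and 52, against 79.93, 61.16, 55.37 and 70.97 CPM in no-Cre animals 4, 6, 51 and 58. The groups were far apart (-2.53 ± 0.21, adjusted p 4.35e-06). Efnb3 made up 11.2% to 31.5% of all ephrin mRNA per length in the Cre libraries and 58.5% to 73.5% in the no-Cre libraries. Efnb2 was also lower (-1.14 ± 0.26), a call lost when libraries were scaled by their totals alone. Efna5, a lipid-anchored ligand of EphA receptors, was higher at 25.11, 15, 10.38 and 13.29 CPM with Cre against 2.73, 7.75, 4.48 and 3 CPM without (1.76 ± 0.33, adjusted p 0.000922). Efna2 was called lower in uncrushed mice (-3.15 ± 1.09, adjusted p 0.0368) at 0.39 and 0.39 CPM with Cre and 0.78 and 6.14 CPM without. That call rested on no-Cre animal 6, without which the log2 fold change was -0.91 (adjusted p 0.657). It was also lost without Cre animal 10, 3, 35 or 52 (adjusted p 0.0696 to 0.156). In crushed mice Efna2 was at 1.08 and 1.42 CPM with Cre and 1.22 and 0.33 CPM without. Efna3 and Efna1 were not called.

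Eph receptors had 1 higher and 3 lower of 13 tested over all libraries (30.8% called, against 59.8% of all genes). Ephb6, a member without kinase activity, was the higher one, at 13.79, 18.6, 13.29 and 16.93 CPM with Cre against 0.39, 6.68, 6.38 and 5.33 CPM in no-Cre animals 4, 6, 51 and 58 (1.72 ± 0.42, adjusted p 0.00448). The call in uncrushed mice (2.07 ± 0.63, adjusted p 0.0207) was lost without Cre animal 3 (adjusted p 0.0949). Ephb4, the receptor for ephrin-B2 known from veins, was lower (-3.03 ± 0.75, adjusted p 0.00494) at 0.1 to 1.43 CPM with Cre and 2.31 to 4.01 CPM without. Ephb1 (-0.69 ± 0.22) and Epha10 (-0.63 ± 0.23) were called lower, each with calls lost without any 1 of several libraries (adjusted p 0.0653 to 0.116 for Ephb1 and 0.063 to 0.168 for Epha10). The 9 not called were Epha2 to Epha8, Ephb2 and Ephb3, of which Epha2 was at most 1.5 CPM and Epha8 at most 2 CPM in any library. Among the 9 was Epha4, for which Cre animals had 12.41 to 22.38 CPM and no-Cre animals 13.89 to 29.59 CPM.

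Markers of other cell types moved with the genes that were lower with Cre. All 10 oligodendrocyte, 5 precursor, 7 astrocyte, 8 microglial and 8 endothelial and pericyte markers were lower with Cre over all libraries. The summed oligodendrocyte markers were at 729.1 to 1871.1 CPM in the Cre libraries and at 4775.7 to 7974.3 CPM in the no-Cre libraries. Astrocyte markers summed to 419 to 713.8 CPM and 1862.7 to 3355.4 CPM, and endothelial and pericyte markers to 40.9 to 69.9 CPM and 317.4 to 493.3 CPM. Of 5 markers each, 5 interneuron, 4 meningeal fibroblast and 4 Schwann cell markers were lower with Cre as well, and none of these was higher. The 5 sensory ganglion markers summed to 212.3 to 441.2 CPM with Cre and 9.9 to 49.9 CPM without. With Cre nearly all of that was Calca, the calcitonin gene-related peptide, which motor neurons also make (4.13 ± 0.32 over all libraries, adjusted p 3.61e-06). The sodium channel Scn11a was lower (-2.52 ± 0.94, adjusted p 0.0367), Scn10a was not called (adjusted p 0.101), and Trpv1 and Mrgprd had too few counts to test. Scn10a, a sodium channel of sensory neurons, differed between replicates, at 1.95, 0.19, 5.76 and 0.08 CPM in Cre animals 10, 3, 35 and 52, against 7.8, 12.02, 0.14 and 11.66 CPM in no-Cre animals 4, 6, 51 and 58. The parts of all these cell types in the lower values of Plxnb1, Plxnb3, Efnb3, Ntn1 and the other lower genes, and of sensory neurons in any guidance gene, were not tested. CPM are relative to each library's scaled total, and precipitates with Cre also hold the mRNA of tagged ribosomes. A lower CPM with Cre is therefore a smaller share of the library. By itself it does not show fewer cells of a type, less RNA per cell or less of that mRNA in the precipitate. In such precipitates of whole cords these cannot be told apart.

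Which calls held was compared across other tests, scalings, filters and left-out libraries, setting aside the grouping by the genotype entry. Over all libraries, 13 of the 16 higher and 14 of the 22 lower guidance genes were called under every such alternative. In uncrushed mice these were Nrp1, Sema3a and Slit2 on the higher side and Efnb3, Ntn1, Plxnb1, Plxnb3, Sema3b and Unc5b on the lower. In crushed mice they were Nrp2, Sema3a, Sema3c, Sema6a and Slit2 on the higher side and Efnb3, Ntn1, Plxnb1, Plxnb3 and Sema5a on the lower.

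No guidance gene passed the test for crush. Within Cre animals, 0 of 63 were called by edgeR (all genes 0.0723%, with 0.0395% higher and 0.0329% lower). An unadjusted p under 0.05 was found for 6 of the 63 and for 1421 of all 15208 genes, a similar share. DESeq2 called 1 of the 59 guidance genes to which it gave an adjusted p, Plxnb1 (adjusted p 0.0227), against 1.16% of all genes that got one, and limma-voom called 0 of 63, among 1.47% of all genes. Fitting only the Cre groups gave 0 calls of 59, among 0.913% of all genes. With no filter on low counts edgeR called Plxnb1 and Ntn1 (adjusted p 0.00465 and 0.00861). The median log2 fold change, crushed over uncrushed, was -0.06 for guidance genes and 0.03 for all genes. Both crushed Cre animals were above both uncrushed ones for 14 guidance genes (26.1% of all genes) and below for 16 (23.9% of all genes).

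The 6 genes with an unadjusted p under 0.05 were all higher after crush in Cre animals, and their values in every animal stand above. Ntn1 gave a log2 fold change of 3.03 ± 0.65 (adjusted p 0.148), Plxnb1 1.36 ± 0.31 (0.178) and Plxnb3 1.42 ± 0.43 (0.319). Efnb3 gave 0.87 ± 0.29 (adjusted p 0.372), Unc5b 1.07 ± 0.38 (0.418) and Plxnd1 1.55 ± 0.67 (0.514). In each of them both crushed Cre animals stood above both uncrushed Cre animals, as in 26.1% of all genes. The 6 were picked for a small p in these same libraries, so this separation adds no evidence. From 53 and 4 counts, Ntn1 was 8.37 times higher after crush (95% interval 3.08 to 31.8, counting error only). All 6 were also among the genes lower with Cre in uncrushed mice, a comparison that shares the Cre uncrushed libraries. Beside them, the summed oligodendrocyte markers were at 902.6 and 729.1 CPM in Cre uncrushed and 1130.4 and 1871.1 CPM in Cre crushed animals. Astrocyte markers summed to 437.5 and 419 CPM before and 575.2 and 713.8 CPM after, and microglial markers to 4.9 and 5.8 CPM and 12.7 and 14 CPM. Precursor and Schwann cell markers also summed higher in both crushed Cre animals. Markers of some other cell types overlapped. Endothelial and pericyte markers summed to 65.4 and 40.9 CPM before and 57.1 and 69.9 CPM after. Interneuron markers summed to 204.4 and 171.7 CPM and 185.4 and 259.7 CPM, and meningeal fibroblast markers to 36 and 30.9 CPM and 37.2 and 33.6 CPM. The part of these markers in the 6 genes was not tested. Crush cannot be told apart from age, or from a number that the titles of all uncrushed libraries share and whose meaning is not given.

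**Figure D5:**
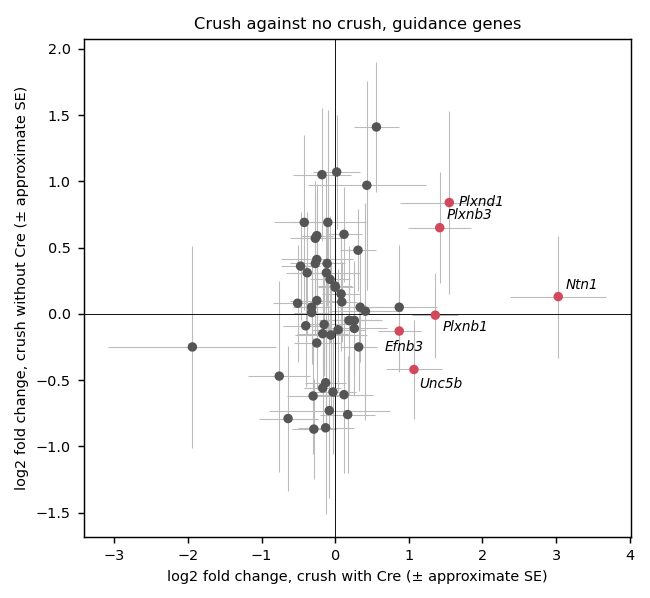
Log2 fold change of crushed over uncrushed mice for each guidance gene tested in both fits, with Cre on the horizontal axis and without Cre on the vertical axis, each with its approximate standard error. Red points are the 6 genes with an unadjusted p under 0.05 with Cre, from Efnb3 at 0.87 to Ntn1 at 3.03 on the horizontal axis, none of which passed the adjusted threshold.

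Several abundant guidance mRNAs that were higher with Cre had crush fold changes near 0 with Cre. The log2 fold change after crush was -0.07 ± 0.27 for Sema3a, 0.12 ± 0.24 for Slit2, 0.09 ± 0.21 for Sema6a, -0.17 ± 0.25 for Nrp2, 0.00 ± 0.23 for Plxna4 and 0.00 ± 0.24 for Robo1. With 2 animals per group these errors do not show that the levels were the same. Among lower values after crush, Efna5 had -0.76 ± 0.42 and Nrp1 -0.47 ± 0.26, with both crushed Cre animals below both uncrushed ones and no call (adjusted p 0.653 for each).

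Without Cre, 0 of 57 guidance genes tested were called for crush by edgeR (all genes 0.0149%). DESeq2 called 0 of the 13 guidance genes to which it gave an adjusted p, and 1.96% of the 3007 genes of any kind that got one. In edgeR an unadjusted p under 0.05 was found for 3 of the 57 and for 1023 of all 13394 genes. Slit3 had 1.41 ± 0.49, Sema4g 1.07 ± 0.43 and Sema4f -0.87 ± 0.38, with adjusted p from 0.617 to 0.646. The crush effect with Cre less that without Cre was called for 0 of 63 genes by edgeR (0.0% of all genes), limma-voom (0.0%) and DESeq2 (0.0986%). In edgeR 7 of the 63 had an unadjusted p under 0.05, as did 905 of all 15208 genes. The difference was positive for 5 of the 7, at 2.93 ± 0.80 for Ntn1, 1.40 ± 0.42 for Plxnb1, 1.52 ± 0.52 for Unc5b, 1.02 ± 0.40 for Efnb3 and 3.79 ± 1.48 for Efna2. It was negative for Sema7a (-0.81 ± 0.32) and Sema4g (-1.02 ± 0.47), and the adjusted p ran from 0.816 to 0.835. So for none of these genes did the crush effect with Cre differ past the threshold from that without Cre.

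Genes that carry guidance signals inside the cell were read from a list of 38, of which 37 were tested. Over all libraries 18 were higher with Cre and 9 lower, against 29.0% and 30.8% of all genes, with a median log2 fold change of 0.57. Among the higher were the collapsin response mediators Dpysl3 (1.68 ± 0.17) and Crmp1 (1.31 ± 0.16), which relay semaphorin 3A signals to microtubules, and the actin-severing cofilin Cfl1 (2.06 ± 0.24). The small GTPases Rhoa (0.64 ± 0.17), Rac1 (0.64 ± 0.18) and Cdc42 (0.86 ± 0.19), which steer the growth cone's actin, were higher as well. Lower were the Rac activator Dock1 (-2.42 ± 0.24), the semaphorin effector Mical3 (-1.67 ± 0.18) and the Slit-Robo GTPase activator Srgap1 (-0.67 ± 0.16). No gene of this list was called for crush with Cre, where 3 had an unadjusted p under 0.05, as did 1421 of all 15208 genes. Of 26 other cues and receptor partners, 24 were tested, with 10 higher and 10 lower over all libraries and a median of -0.14. That is 83.3% called, against 59.8% of all genes, in a list chosen with earlier results of these data known. Higher ones included the GDNF receptor Ret (3.05 ± 0.27), the glypican Gpc1 (2.86 ± 0.17), the netrin-G genes Ntng2 (2.53 ± 0.23) and Ntng1 (1.62 ± 0.17) and the adhesion molecule L1cam (1.57 ± 0.17). Lower ones included the myelin protein Mag (-2.99 ± 0.22), the netrin and RGM receptor Neo1 (-0.95 ± 0.18) and its ligand Rgma (-1.34 ± 0.23), while Rgmb was higher (1.37 ± 0.21). For crush with Cre, edgeR over all 8 libraries called 0 of the 24 (0.0723% of all genes), and 4 had an unadjusted p under 0.05 (1421 of all 15208 genes). The adhesion molecule Chl1, a relative of L1cam, had the smallest of these p-values. With Cre it stood at 18.21 CPM in animal 10 and 27.66 CPM in animal 3, both uncrushed, and after crush at 65 CPM in animal 35 and 57.36 CPM in animal 52 (1.41 ± 0.29, adjusted p 0.14). Chl1 was called by the edgeR fit of only the Cre groups (adjusted p 0.038, with 0.913% of all genes called), by limma-voom (0.00958, 1.47%) and by DESeq2 (0.00266, 1.16%). Its no-Cre libraries were at 47.18, 81.46, 75.73 and 72.47 CPM in animals 4, 6, 51 and 58, and its interaction was not called (adjusted p 0.819).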

How the data were processed

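The submitters' processing notes name Bowtie2 2.2.0 and RSEM 1.2.12 for the tables the authors deposited, and no genome build. The deposited expected counts per gene, estimates of reads that are scaled for neither depth nor length, were rounded to whole numbers. The deposited gene lengths (a measure of the type other, in bases, averaged over the 8 libraries) served to give CPM per kilobase. Symbols were assigned to 37607 of 38924 identifiers (96.6%). The symbols of the 68 guidance genes, the other gene lists and the markers were chosen with earlier results of these data known.

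Counts were fitted with edgeR 4.0.16 in R 4.3.3 (TMM; filterByExpr, minimum count 10 and minimum total 15; 15208 genes) with 1 mean per group over all 8 libraries and 4 residual degrees of freedom. Crush without Cre was fitted on the 4 no-Cre libraries alone (13394 genes, 2 residual degrees of freedom), because these vary more than the Cre libraries. The interaction was fitted over all 8 libraries, with the spread shared. "All libraries" is the mean of the Cre contrasts in uncrushed and crushed mice. Tests were two-sided and called at a Benjamini-Hochberg adjusted p under 0.05 over all genes. Values after ± are approximate standard errors of log2 fold changes. Alternatives used DESeq2 1.42.0, limma 3.58.1 (voom), other scalings, no filter, age as a covariate, the genotype entry in place of the title, and leaving out libraries. The scripts were tested on simulated data. Values in every animal are given for the 12 largest fold changes called in uncrushed mice, the 10 highest levels per length with Cre, and others chosen after their values were seen. Intervals cover counting error only.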

Additional observations from a re-analysis of the deposited data

How the results depend on the processing

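The 2 libraries whose genotype entry contradicts the title decide the most. Their Chat levels follow the titles, at 126.02 CPM in Cre uncrushed animal 3 and 4.29 CPM in no-Cre uncrushed animal 4. Grouping by the genotype entry thus puts a library with high Chat beside another with low Chat in each uncrushed group. Grouped by the genotype entry, 0 guidance genes were called for Cre against no Cre in uncrushed mice, crushed mice or all libraries, in either direction. In uncrushed mice that grouping turned the log2 fold change to 0.87 for Efnb2, 0.34 for Efnb3, 0.16 for Ntn1, 0.66 for Plxna2, 0.32 for Robo2, -0.08 for Sema6a, -0.13 for Robo1, -0.35 for Sema3c, -0.17 for Sema3a, -0.36 for Plxna4, -0.77 for Ephb6, -0.38 for Plxna1, -0.19 for Slit2, -0.3 for Sema7a, -0.09 for Sema3d and -0.42 for Slit3. Over all libraries it turned Efnb2 to 0.1 and Ephb1 to 0.03. For crush with Cre it gave -1.49 for Efnb3, -0.62 for Unc5b, -1.36 for Ntn1, -0.33 for Plxnb3 and -1.43 for Plxnb1. For the interaction it gave -2.36 for Efnb3, -0.77 for Unc5b, -2.6 for Ntn1, -0.54 for Plxnd1, -1.57 for Plxnb3 and -2.22 for Plxnb1; leaving out 1 library at a time gave a Plxnd1 interaction of -0.04 (without no-Cre uncrushed animal 6) to 1.2. With both libraries left out, 18 genes were called in uncrushed mice (5 higher). Scaling by library totals alone gave 6 lower genes in uncrushed mice and 15 genes (7 higher, 8 lower) in crushed mice. Age differed within a group only between Cre crushed animals 35 and 52. Adding age to the comparison in crushed mice therefore acts much as leaving out animal 35, and is no separate check of age. Leaving out 1 library at a time gave 18 to 31 called genes in uncrushed mice (8 to 16 higher, 10 to 16 lower), the fewest without Cre uncrushed animal 3, and 12 to 32 in crushed mice (6 to 16 higher, 6 to 16 lower). In crushed mice the count was 12 without Cre animal 35, 16 without Cre animal 52, 19 without no-Cre animal 51 and 15 without no-Cre animal 58. For crush with Cre, DESeq2 called 1 gene, higher, and edgeR with no filter called 2, both higher; the other alternatives called 0. The cause of these differences was not tested. No paired analysis was possible because the 4 groups share no animal number. In no-Cre uncrushed animal 4, the shallowest library, 3 counts made 1.17 CPM, so values near or under that level rest on few counts.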
